A study of Mus musculus with 34 samples.

Results

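The genes described here are 37 genes of the peroxisome and of fatty acid oxidation, chosen by symbol and grouped by role into 7 genes of peroxisomal beta- and alpha-oxidation, 3 of ether lipid synthesis, 12 peroxins and 15 of mitochondrial beta-oxidation. Of these, 36 were among the 16576 genes listed for the cultures, and the carnitine palmitoyltransferase gene Cpt1a was not listed there. The question was whether Hsd17b4, which encodes the peroxisomal D-bifunctional protein, moved alone or with its pathway when Dkk-1 was blocked. The study had already reported Hsd17b4 as downregulated with DkkMo in both conditions of these cultures, so its own fall was known beforehand. It reported the gene as downregulated in tumours as well. The cells were MOSJ-Dkk1, a murine osteosarcoma line labelled with RFP that carries human Dkk-1 in a lentiviral vector under the CMV promoter, and every culture group shares this transgene and this single line. Cultures in the log phase of growth, 6 days with media changes, and cultures under nutritional stress, held at confluence for 48 h with no media change for 4 days, each received 5 µM DkkMo (a vivo morpholino against Dkk-1), 5 µM scrMo (its mismatched control) or no morpholino (NT). The dose is that of the labels and the sequencing methods, and the study gives another in a figure legend. Collection is stated as after 1 week of treatment in the sequencing methods, while the main text of the study gives 6 days of exposure. Each of these 6 groups had 3 libraries. A second set held 16 MOSJ-Dkk1 tumours from NU/J nude mice, read from fixed tissue, with 4 tumours each from saline-treated mice (NT) and from mice given DkkMo, doxorubicin (DRB) or the combination.

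Peroxisomes shorten fatty acids that mitochondria handle poorly, such as very long-chain and branched-chain acids. The transporter Abcd3 brings the acyl-CoA in, the acyl-CoA oxidases such as Acox3 take the first step, Hsd17b4 hydrates and dehydrogenates the product, and the thiolases Acaa1a and Scp2 cleave it. Peroxins build the organelle and import these enzymes. Mitochondria take up long-chain acids through the carnitine shuttle and oxidise them by acyl-CoA dehydrogenases, the trifunctional protein encoded by Hadha and Hadhb, and electron transfer flavoprotein.

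Libraries held 25.9 to 44.8 M reads on listed genes in the cultures, and a member held between 101 and 6541 reads in a library. Values are normalized read counts, that is, reads divided by the size factor of the library, recovered from the deposited variance-stabilised values. Changes are differences of group means of the variance-stabilised log2 values with their standard error (SE), and these understate the change in reads of genes with few reads. A gene passed when its Benjamini-Hochberg adjusted p from limma, over 16562 genes, was below 0.05, and was differentially expressed (DE) when it also changed by more than 1.5-fold. Sources used here do not say whether replicates were separate cultures, so p-values measure the spread between libraries, which may be technical. Of the osteoblast markers, 6 of 9 were listed, led by Spp1, and Sp7, Ibsp and Dmp1 were not. The mouse annotation holds no row for the human transgene, so the targeted message was not checked.

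In log phase without morpholino, the level per kilobase of merged exons was highest in Acadl, a long-chain acyl-CoA dehydrogenase, at 1415 normalized counts per kilobase, and lowest in the peroxin Pex10, at 55.7. Hsd17b4 stood 11th of 36 at 529.8 per kilobase, next to its thiolase Acaa1a at 514. The other peroxisomal oxidation genes were lower, from 368 per kilobase for Scp2 to 56.2 for Acox3. Their order rests on an annotated length that counts every exon, also those these cells may not use.

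Hsd17b4 (ENSMUSG00000024507, GRCm38 chr18:50128201-50196269, plus strand) was lowest in the stressed DkkMo cultures. Its normalized counts there were 589, 580.0 and 583, against 1079.5, 1194 and 1208 with scrMo and 1177, 1105 and 1133 with NT. DkkMo libraries thus lay below both controls without overlap, at a mean of 584 ± 4.77 (SD, n = 3) against 1161 ± 70.5 and 1139 ± 36.3, which is 1.99 and 1.95 times lower. The log2 change was -0.75 ± 0.05 (SE) against scrMo (limma adjusted p = 1.09e-08) and -0.73 ± 0.05 against NT (adjusted p = 1e-08). On log2(normalized count + 1), which does not compress the reads, the same changes were -0.99 ± 0.06 and -0.96 ± 0.06. A larger fall was found for 49 of 16562 genes against scrMo and for 92 against NT, a rank that only describes a gene chosen with its fall known.

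In log phase the same gene read 1229.7, 1296 and 1201 with DkkMo, 1421, 1429.9 and 1656 with scrMo, and 1789.9, 1765 and 1855 with NT. The 3 groups did not overlap, with scrMo between the others. Hsd17b4 fell by 0.23 ± 0.05 on the log2 scale with DkkMo against scrMo (limma adjusted p = 0.00416), by 0.46 ± 0.05 against NT (adjusted p = 2.24e-05), and by 0.23 ± 0.05 with scrMo itself against NT (adjusted p = 0.00349). With only the 2 log-phase groups in the model the first of these did not pass (adjusted p = 0.122). Its size was also below the 1.5-fold change that the study required of differentially expressed genes. The study nevertheless lists Hsd17b4 as downregulated in that comparison. The fall against scrMo was larger under stress than in log phase, by 0.53 ± 0.08 (adjusted p = 7.34e-05). In each of the 9 comparisons of culture groups the exact permutation test of this gene, two-sided, gave p = 0.1, the smallest that 3 against 3 allows, except scrMo against NT under stress, where it gave 0.7.

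Within libraries Hsd17b4 also shifted relative to the other 35 members. Its variance-stabilised value lay 0.28 to 0.36 above the median of the others in log-phase NT cultures and 0.53 to 0.59 below it in stressed DkkMo cultures. In the stressed NT cultures it lay 0.09 to 0.15 above that median, and in stressed scrMo cultures the difference was -0.02 to 0.08. Against the median of the 14 mitochondrial members Hsd17b4 lay 0.09 to 0.21 above in stressed NT cultures and 0.62 to 0.64 below in stressed DkkMo cultures. Its difference from Acaa1a under stress was -0.62 to -0.51 with DkkMo, -0.61 to -0.50 with scrMo and -0.15 to -0.05 with NT. Relative to Acaa1a it thus did not shift between scrMo and DkkMo.

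Acaa1a (ENSMUSG00000036138, GRCm38 chr9:119339676-119350299, plus strand), the thiolase that acts after Hsd17b4, was the other member with a large fall. Its normalized counts under stress were 1043, 928 and 955 with DkkMo, 1794, 1937 and 1816 with scrMo, and 1335, 1229.8 and 1186 with NT. All 3 DkkMo libraries lay below all libraries of both controls, and scrMo lay above NT. The log2 change was -0.77 ± 0.07 against scrMo (adjusted p = 1.15e-07) and -0.29 ± 0.07 against NT (adjusted p = 0.00166). In log phase it read 1995, 1676 and 1716 with DkkMo, 2282, 2184 and 1911 with scrMo, and 2192, 2316 and 2299.9 with NT. There DkkMo and scrMo overlapped, and the changes were -0.21 ± 0.07 against scrMo (adjusted p = 0.0234) and -0.30 ± 0.07 against NT (adjusted p = 0.00556). The first of these did not pass when DkkMo replicate 2 or 3, or scrMo replicate 1 or 2, was left out (values from -0.28 to -0.17 over the 6 libraries left out in turn, highest adjusted p = 0.119). Acaa1b, a near copy whose reads the counting could confuse with those of Acaa1a, had means of 16.6 to 29.4 normalized counts over the groups and did not pass in any of these comparisons. It was named after its values were seen.

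Hsd17b4 and Acaa1a were the members that fell with DkkMo against both scrMo and NT in both conditions, 2 of 36, against 0.29% of all genes tested. For Acaa1a this rests on its fall against scrMo in log phase, which did not pass in 6 of 17 alternatives, among them the compared groups only and the replicate block (highest adjusted p = 0.204), and for Hsd17b4 the same fall did not pass in 1 of 17. Their other falls with DkkMo passed in every alternative run. No member rose in all 4 comparisons. These comparisons share the DkkMo libraries, and those of each control. Hsd17b4 was chosen with its fall in these cultures known from the study, so its place in the counts of this paragraph is no independent support. Under stress alone, 4 members fell against both controls, against 3.94% of all genes. They were Hsd17b4, Acaa1a, and the peroxins Pex2 and Pex26. Stressed DkkMo libraries lay below all the other 15 culture libraries for 4 members (Hsd17b4, Acox3, Acaa1a and Pex2), against 5.07% of all genes.

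**Figure D1:**
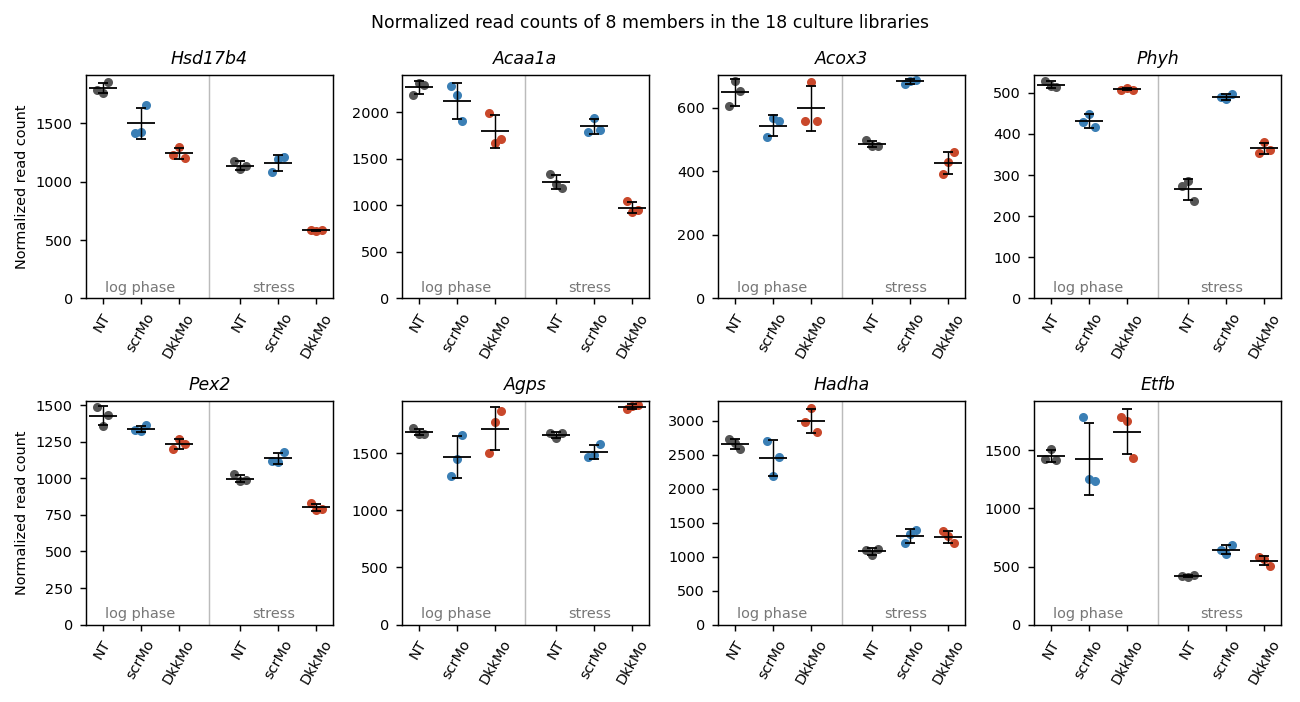
Normalized read counts (vertical axes) of 8 members in the 6 culture groups (horizontal axes), with 1 point per library and the mean ± SD in black. Hsd17b4 sits between 580.0 and 589 in the stressed DkkMo cultures and at 1079.5 or above in every other group, whereas Hadha and Etfb are low in all 3 stressed groups.

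Under nutritional stress, more members were lower than higher with DkkMo against scrMo, the peroxisomal oxidation genes above all. Of 36 members, 14 fell (38.9%, against 10.9% of all genes) and 1 rose (2.78%, against 9.97%), and 21 did not pass. The median change over members was -0.12, against 0.00 over all genes. DkkMo and scrMo libraries did not overlap for 25 members, 23 lower and 2 higher, while 44.9% of all genes showed no overlap in either direction. Hsd17b4 and Acaa1a were DE, and 0.489% of all genes were DE and lower. On log2(normalized count + 1), Acox3 and Pex7 were also DE and lower, 4 members in all, against 2.43% of all genes. With each library centred on its median gene 12 members fell and 1 rose, and Abcd3 and Gnpat no longer passed (of all genes that passed, 63.4% were higher in place of 47.7%).

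Among the 7 peroxisomal oxidation genes, 5 fell with DkkMo against scrMo under stress. Besides Hsd17b4 and Acaa1a these were Acox3, a branched-chain acyl-CoA oxidase, at -0.47 ± 0.06, Phyh, which starts the alpha-oxidation of phytanic acid, at -0.28 ± 0.05, and the transporter Abcd3 at -0.15 ± 0.05. Acox3 read 389.6, 429 and 459 with DkkMo, 675, 684 and 688 with scrMo and 497, 479 and 479 with NT, so that DkkMo lay below both controls and scrMo above NT. Phyh read 354, 381 and 361 with DkkMo against 489, 485 and 498 with scrMo, but 274, 286 and 237 with NT. DkkMo thus lay below scrMo and above NT, with no overlap. Amacr, the racemase that prepares branched acids, read 179, 139.9 and 133 against 178, 189 and 196 and did not pass. Scp2, a thiolase and sterol carrier, read 701, 785 and 758 against 801, 821 and 888 and did not pass either (adjusted p over 0.05 for both).

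The ether lipid genes did not move together. Agps, the synthase that forms the ether bond, was the member that rose, by 0.29 ± 0.07 (adjusted p = 0.00433), with 1884, 1911 and 1921 counts under DkkMo against 1463, 1480.1 and 1581 under scrMo. Gnpat, which acylates the starting phosphate, fell by 0.13 ± 0.05. Far1, the reductase that supplies the fatty alcohol, changed by -0.03 ± 0.12 and did not pass.

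Of the 12 peroxins, 5 fell and none rose. They were Pex7, the receptor for enzymes with the second peroxisomal targeting signal, at -0.50 ± 0.05, Pex2, a ubiquitin ligase of the import machinery, at -0.40 ± 0.04, Pex11a, which acts in division, at -0.24 ± 0.05, and Pex6 and Pex26, an export ATPase and its anchor, at -0.22 ± 0.07 and -0.21 ± 0.05. Pex7 read 512, 481 and 554 with DkkMo, 845, 856 and 787 with scrMo and 562, 492 and 515 with NT, so that DkkMo and NT overlapped and scrMo stood above both. The remaining 7 peroxins (Pex3, Pex5, Pex10, Pex13, Pex14, Pex16 and Pex19) had changes from -0.11 to 0.10.

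Of the 14 mitochondrial members, 3 fell. They were the medium-chain dehydrogenase Acadm at -0.29 ± 0.07, the hydratase Echs1 at -0.24 ± 0.06 and the thiolase Acaa2 at -0.20 ± 0.06. Acadm read 1383, 1396 and 1351 with DkkMo against 1680.4, 1763 and 1774 with scrMo. Echs1 read 1161, 1106 and 1128 against 1298, 1427 and 1434. The other 11 (Cpt2, Acadl, Acadvl, Hadha, Hadhb, Hadh, Eci1, Eci2, Decr1, Etfa and Etfb) lay between -0.16 and 0.09.

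Against NT, stressed DkkMo cultures showed a different set of values. There 10 members rose (27.8%, against 19% of all genes) and 7 fell (19.4%, against 22.7%). The 7 were Hsd17b4, Acaa1a and 5 peroxins (Pex2, Pex3, Pex14, Pex16 and Pex26), and the 10 were Phyh, Abcd3, Amacr, Agps, Far1, Cpt2, Hadh, Hadha, Hadhb and Etfb. Cpt2, the inner-membrane carnitine palmitoyltransferase, was the largest rise at 0.33 ± 0.06. Hsd17b4 was DE, against 1.54% of all genes that were DE and lower. No mitochondrial member fell. Without NT replicate 2, 11 members passed in place of 17, and the share of all genes in that fit is not reported here. The rises of Etfb and Hadhb were each lost with 5 of the 6 libraries left out in turn, and that of Hadha without NT replicate 2 or DkkMo replicate 1 (highest adjusted p = 0.137, 0.0782 and 0.0741 for Hadhb, Etfb and Hadha).

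**Figure D2:**
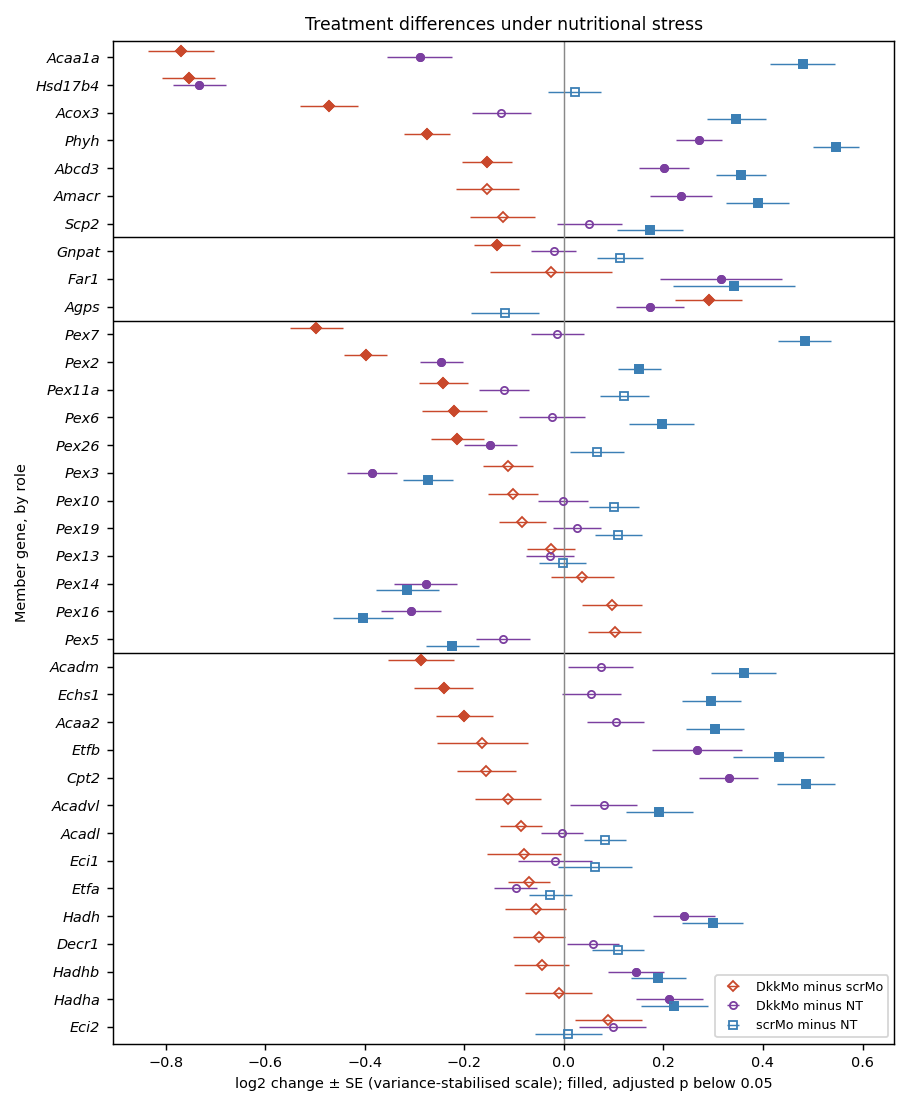
Log2 change ± SE (horizontal axis) of each of the 36 measured members (vertical axis, by role) under nutritional stress, for DkkMo minus scrMo, DkkMo minus NT and scrMo minus NT. Filled symbols passed at an adjusted p below 0.05. Hsd17b4 is at -0.75 and -0.73 against the 2 controls with scrMo minus NT at 0.02, whereas most other members below 0 against scrMo have scrMo minus NT above 0.

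In log phase, DkkMo against scrMo gave 8 members higher (22.2%, against 14.3% of all genes) and 3 lower (8.33%, against 9.2%). The 3 were Hsd17b4, Acaa1a and the docking peroxin Pex14 (-0.18 ± 0.06). The 8 were Hadhb (0.28 ± 0.06), Hadha (0.27 ± 0.07), Pex6, Scp2, Acadm, Agps, Phyh and Etfa, from 0.16 to 0.25 for the last 6. Hadha read 2972, 3182 and 2829 with DkkMo against 2701, 2184 and 2462 with scrMo, and Hadhb 920.4, 971 and 928 against 790.0, 685 and 712, both without overlap. No overlap was found for 12 members in all, against 26.9% of all genes. This comparison rested on single libraries and on scaling. With DkkMo replicate 2 or scrMo replicate 2 left out, 5 and 4 members passed. The share of all genes that passed in those fits is not reported here, so a loss particular to the members was not tested. With each library centred on its median gene, which moved the median change of all genes from 0.00 to -0.06, 3 members were higher and 7 lower (all genes that passed, 31.7% higher in place of 60.8%). Quantile normalization gave 6 higher and 6 lower (48.4% of all genes that passed higher). Scp2, Acadm, Agps, Phyh and Etfa no longer passed with median-centring, and Hsd17b4, Acaa1a, Pex14, Hadha, Hadhb and Pex6 did.

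Against NT in log phase, 1 member rose (2.78%, against 5.36% of all genes) and 3 fell (8.33%, against 4.46%). Acadl rose by 0.23 ± 0.04, while Hsd17b4, Acaa1a and Pex2 fell. Pex2 read 1201, 1270.2 and 1233 with DkkMo and 1491, 1359 and 1433 with NT, without overlap, at -0.17 ± 0.04. That call was lost without NT replicate 1 or 3 (highest adjusted p over the alternatives, 0.145).

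The change with DkkMo against scrMo differed between conditions for 18 of 36 members, and each of these was lower under stress than in log phase (50% of members, against 13.2% of all genes). None was higher, against 8.93%. They were 6 of the 7 peroxisomal oxidation genes (all but Amacr), 5 peroxins and 7 mitochondrial genes. With libraries centred on the median gene, 12 were lower and 2, Pex14 and Pex5, higher (of all genes that passed, 72.2% higher in place of 40.3%). With quantile normalization 14 were lower and none higher (50.5% of all genes that passed higher). The call of Hadha was lost with 7 of 12 libraries left out in turn (highest adjusted p = 0.123). The largest differences were those of Acox3 (-0.57 ± 0.08), Acaa1a (-0.56 ± 0.09), Hsd17b4 (-0.53 ± 0.08) and Pex7 (-0.52 ± 0.08).

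The 2 controls themselves differed in these genes, mostly upwards under stress and downwards in log phase. Under stress scrMo was higher than NT for 19 members (52.8%, against 22.1% of all genes) and lower for 4 (11.1%, against 24.7%). In log phase it was higher for 2 (5.56%, against 11.8%) and lower for 9 (25%, against 14.6%). A comparison added after the data were seen tested the difference between conditions directly. It was higher under stress for 23 members (63.9%, against 22.8% of all genes) and lower for 3 peroxins (8.33%, against 23.2%), and with median-centring 17 and 6 (of all genes that passed, 32% higher in place of 49.6%). The same difference for DkkMo against NT was higher for 4 members (11.1%, against 12.3%) and lower for 6 (16.7%, against 16.8%).

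Phyh gave the largest difference of scrMo from NT under stress, at 0.55 ± 0.05 (adjusted p = 2.85e-08), followed by Cpt2 at 0.49 ± 0.06, Pex7 and Acaa1a at 0.48 ± 0.05 and 0.48 ± 0.07, and Etfb, the beta subunit of electron transfer flavoprotein, at 0.43 ± 0.09. Cpt2 read 391, 419.7 and 393 with scrMo, 344, 298 and 371 with DkkMo and 229.7, 202 and 243 with NT. Both morpholino groups thus lay above NT with no overlap. On log2(normalized count + 1), 5 members (Amacr, Phyh, Pex7, Cpt2 and Etfb) were DE and higher with scrMo, against 11.2% of all genes. Hsd17b4 was at 0.02 ± 0.05 (adjusted p = 0.768) and its 3 scrMo libraries overlapped those of NT. The 4 members that were lower with scrMo were Pex16 (-0.40 ± 0.06), Pex14, Pex3 and Pex5. In log phase the 9 lower members ran from Hsd17b4 at -0.23 to Pex19 at -0.13. Leaving out NT replicate 2 or 3, or scrMo replicate 2, left 5, 6 and 6 members in place of 11 in log phase, and median-centring gave 4 higher and 4 lower (of all genes that passed, 66.2% higher in place of 44.8%). The rises of Scp2, Hadha and Hadhb with scrMo under stress were lost when single libraries were left out (4, 2 and 1 of 6, highest adjusted p = 0.143, 0.0582 and 0.0652), and so were the falls of Hadh, Scp2 and Acadm in log phase (5, 4 and 2 of 6, highest adjusted p = 0.18, 0.199 and 0.0731). Under stress median-centring gave 15 higher and 4 lower (of all genes, 35.9% higher in place of 47.2%).

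Most of the oxidation genes were lower in the stressed cultures than in log phase, with fewer falls under scrMo. Stressed and log-phase cultures differed in confluence as well as in media changes, so the part of each was not tested. With NT, 26 of 36 members fell (72.2%, against 34.1% of all genes) and 6 rose (16.7%, against 31.5%). With DkkMo 25 fell (69.4%, against 35.2%) and 3 rose (8.33%, against 30.4%), and with scrMo 15 fell (41.7%, against 30.8%) and 9 rose (25%, against 28%). In NT cultures 12 members were DE and all were lower, against 9.9% of all genes. With DkkMo 9 were DE and lower (10.2% of all genes) and with scrMo 3 (6.28%). On log2(normalized count + 1) these counts were 15 with NT (20.9% of all genes), 16 with DkkMo (19.2%) and 4 with scrMo (13.3%). The median change of members was -0.37 with NT, -0.33 with DkkMo and -0.07 with scrMo, and that of all genes was -0.01 in each. Centring each library on its median gene moved the median change of all genes to 0.145 with NT, 0.153 with DkkMo and 0.06 with scrMo, and that of members to -0.21, -0.16 and 0.00. The splits then were 9 higher and 21 lower with NT, 9 and 20 with DkkMo and 10 and 13 with scrMo (of all genes that passed, 70.2%, 70.1% and 60.1% higher in place of 48%, 46.3% and 47.6%). The summed count of the 6 listed osteoblast markers, most of it Spp1, also fell, from 234200 to 266200 in log-phase NT libraries to 71440 to 77850 under stress. Other marker sums were higher under stress with NT. The chondrocyte sum, nearly all Sox9, was 4772 to 5903 in log phase and 8692 to 9269 under stress. That of leukocyte markers was 959.8 to 1032 and 2088 to 2411, while the skeletal muscle sums overlapped. Most of the leukocyte sum was Cd68 and Csf1r, and Ptprc held only 1.04 to 20.3 counts over the culture libraries. Whether leukocytes were present in these cultures of a single line was not tested. The part of these markers in the changes of members was not tested.

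The mitochondrial genes fell under stress in each treatment. Of 14, 13 fell with NT, 14 with DkkMo and 10 with scrMo, and none rose. Etfb fell furthest with NT, by 1.35 ± 0.09 on the log2 scale (adjusted p = 1.6e-10), from 1422, 1510.2 and 1420.2 normalized counts to 419, 409 and 424. With scrMo it went from 1785, 1257 and 1241 to 640.3, 610.4 and 688, and with DkkMo from 1791, 1754 and 1438 to 579, 567 and 506. In each treatment every stressed library lay below every log-phase library, and log-phase scrMo replicate 1 stood above the other scrMo libraries. With NT this lack of overlap was part of the rule by which Etfb was picked. The share of all genes without overlap is not reported here. Hadha, the alpha subunit of the trifunctional protein, fell by 1.12 ± 0.07 with NT, from 2728, 2664 and 2579 to 1095, 1024 and 1117. Its partner Hadhb fell by 0.59 ± 0.06, from 791, 872 and 779.8 to 486, 439.7 and 451.

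Hadh, the short-chain hydroxyacyl-CoA dehydrogenase, fell with NT from 2479, 2496 and 2473 to 1171, 1205 and 1194, a change of -0.91 ± 0.06. Cpt2 fell from 463, 542 and 530.2 to 229.7, 202 and 243, at -0.72 ± 0.06. Decr1, a reductase for unsaturated acids, fell from 1641, 1624 and 1562 to 951, 892 and 842, at -0.69 ± 0.05. In all 3 the stressed and log-phase libraries did not overlap, which the rule that picked these members for listing had required. How many of all genes showed no overlap there is not reported here. Acadm fell from 2184, 2323 and 2200.1 to 1262, 1296 and 1325 (-0.68 ± 0.07), and Echs1 from 1921, 1899.7 and 1817 to 1099.6, 1150.0 and 994 (-0.67 ± 0.06). Etfa, the alpha subunit of the flavoprotein, fell most with DkkMo, from 2013, 2000.2 and 1966 to 1118, 1053 and 1075 (-0.74 ± 0.04). With scrMo, Acadm, Acadvl, Acaa2 and Acadl did not pass, with changes from -0.09 to 0.00. Acadl was the mitochondrial member that did not pass with NT (0.07 ± 0.04).

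All 7 peroxisomal oxidation genes fell under stress with NT, 6 fell with DkkMo, and with scrMo 4 fell and 3 rose. Amacr fell furthest with NT, from 389.8, 381 and 366 to 88.2, 108 and 108 (-0.96 ± 0.06), followed by Acaa1a (-0.74 ± 0.07), Scp2 from 1199.5, 1265 and 1377 to 697, 754 and 689 (-0.66 ± 0.07), Phyh from 530.1, 517 and 514 to 274, 286 and 237 (-0.60 ± 0.05) and Hsd17b4 (-0.56 ± 0.05). With scrMo the members that rose were Acox3 (0.23 ± 0.06), Abcd3 (0.23 ± 0.05) and Phyh (0.12 ± 0.05), and the call of Phyh was lost when log-phase scrMo replicate 1 or 3 or any stressed scrMo library was left out (highest adjusted p = 0.0926). The fall of Acaa1a with scrMo (-0.17 ± 0.07) was lost without log-phase scrMo replicate 1 or 2 or stressed scrMo replicate 1 or 3 (highest adjusted p = 0.127), and under median-centring.

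**Figure D3:**
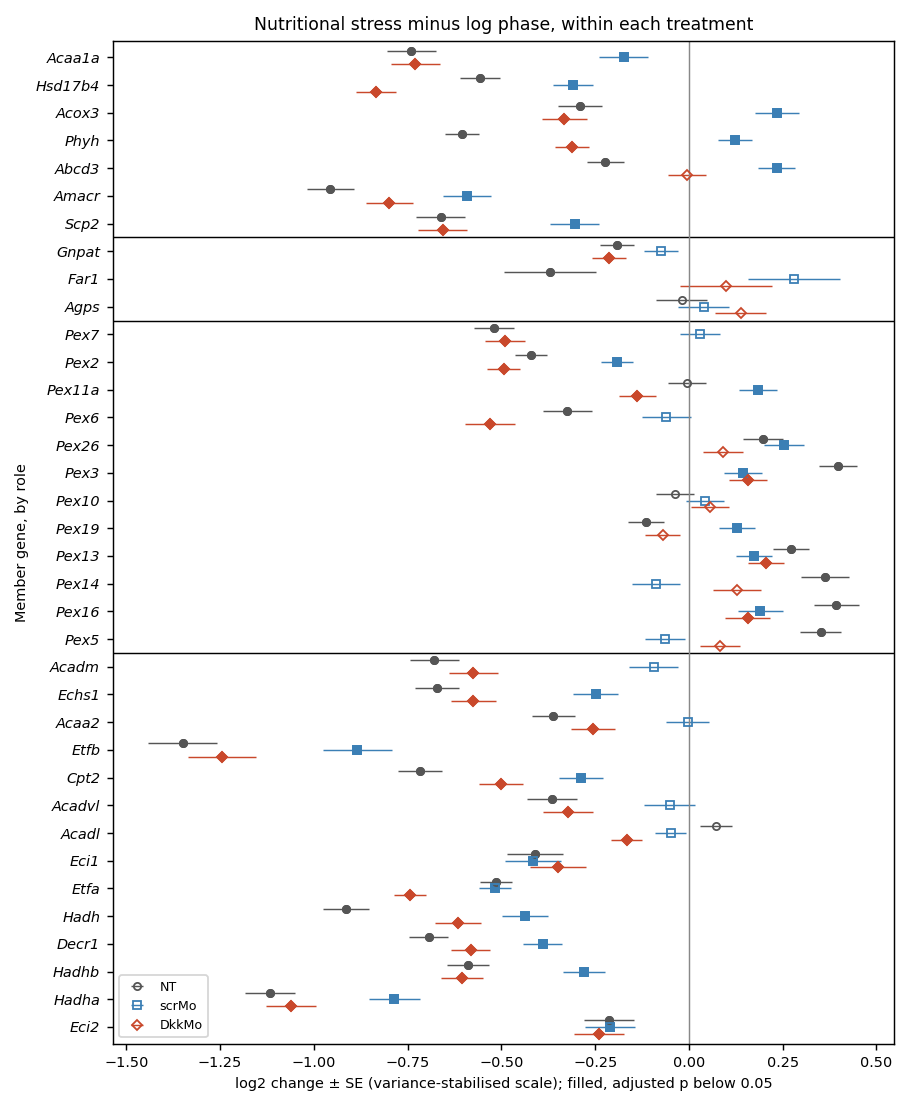
Log2 change ± SE (horizontal axis) of each measured member (vertical axis, by role) from log phase to nutritional stress, with NT, scrMo and DkkMo cultures each compared with their own log-phase group. Filled symbols passed at an adjusted p below 0.05. The mitochondrial genes lie to the left with Etfb at -1.35 in NT cultures, and Pex3, Pex13 and Pex16 lie to the right in all 3 treatments.

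Peroxins moved in both directions. With NT, 6 of 12 rose under stress (50%, against 31.5% of all genes) and 4 fell (33.3%, against 34.1%). Those that rose were Pex3 and Pex16, which place membrane proteins (0.40 ± 0.05 and 0.39 ± 0.06), Pex14, Pex5 (the main import receptor), Pex13 and Pex26, and those that fell were Pex7 (-0.52 ± 0.05), Pex2 (-0.42 ± 0.04), Pex6 and Pex19. Pex3, Pex13 and Pex16 rose in all 3 treatments, against 16.6% of all genes, and of all members 15 fell in all 3, against 19.5%. With libraries centred on the median gene, Pex10, Pex11a and Pex19 turned from below 0 to above it in NT cultures, and Abcd3 and Pex11a did so in DkkMo cultures.

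Hadha and Hadhb lie head to head on chromosome 5, and their annotated start sites are 86 bp apart. The bases between the start sites are shown because both genes rose with DkkMo against scrMo in log phase (not against NT) and fell under stress. The 2 other stretches, upstream of Acaa1a and of Etfb, are shown because Acaa1a was DE with DkkMo against scrMo under stress and Etfb fell furthest from log phase to stress in NT cultures. They were taken from RefSeq promoter windows of build GRCm38.p6, which run from 250 bases before to 50 after each start and were found for 31 of the 37 members. Hsd17b4, Amacr, Pex2, Pex19, Decr1 and Acaa2 had no window, so the promoter of Hsd17b4 was not searched for any motif. Hadhb is shown at chr5:30155163-30155247, Acaa1a at chr9:119341085-119341201 and Etfb at chr7:43444003-43444057, all on the plus strand, and capitals mark CCAAT boxes on either strand (CCAAT or ATTGG). The RefSeq start used for Acaa1a lies downstream of the first base of the annotated gene given above, so its stretch is upstream of that start but within the annotated gene. For Hadha the RefSeq start also lies inside the annotated gene. The Hadha-Hadhb interval shown thus runs between the annotated starts and not between the RefSeq starts.
Hadha-Hadhb interval: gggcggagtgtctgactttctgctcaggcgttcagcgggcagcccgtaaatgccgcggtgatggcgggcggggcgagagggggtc
Acaa1a upstream: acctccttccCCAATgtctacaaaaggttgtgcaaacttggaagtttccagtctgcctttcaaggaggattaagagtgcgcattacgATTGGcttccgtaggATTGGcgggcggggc
Etfb upstream: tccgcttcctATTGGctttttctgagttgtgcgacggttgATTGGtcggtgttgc

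A CCAAT box was found in 11 of these 31 members and in 37.4% of all 32851 windows. Acaa1a held 4 in its window and Etfb 2, while 1.06% of all windows held at least 4 and 11.7% at least 2. Hadha and Hadhb held none. The direct repeat that PPAR and RXR bind (AGGTCA repeated after any 1 base) and the estrogen-related receptor element (TCAAGGTCA) were in none of the 31, searched on both strands, and in 0.0396% and 0.423% of all windows. The single unit AGGTCA, which is part of both receptor motifs, was in 6 members (Acadm, Acadvl, Cpt1a, Echs1, Phyh and Scp2) and in 16.3% of windows. The E-box CACGTG was in 1 (Gnpat, 7.15% of windows) and the cyclic AMP element TGACGTCA in 1 (Pex13, 1.79%). These letters are descriptions of the windows only.

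The 6 further lists of pathway genes held 74 measured genes. With DkkMo against scrMo under stress 10 of them fell (13.5%, against 10.9% of all genes) and 8 rose (10.8%, against 9.97%), and in log phase 4 fell (5.41%, against 9.2%) and 20 rose (27%, against 14.3%). None was DE in either comparison. Against NT 12 fell and 19 rose under stress (16.2% and 25.7%, against 22.7% and 19%), and 3 fell and 10 rose in log phase (4.05% and 13.5%, against 4.46% and 5.36%). DE and higher against NT were Pdk4, a kinase that inhibits pyruvate dehydrogenase, at 0.69 ± 0.08 in log phase and 1.30 ± 0.08 under stress, and Cpt1c at 0.69 ± 0.06 under stress. Pdk4 also rose against scrMo, by 0.36 ± 0.08 in log phase and 0.49 ± 0.08 under stress, and was named after its values were seen. With scrMo against NT, Pdk4 rose by 0.33 ± 0.08 in log phase and 0.81 ± 0.08 under stress, and Cpt1c by 0.77 ± 0.06 under stress. Cpt1c did not pass with DkkMo against scrMo under stress (-0.08 ± 0.06). Of 23 other peroxisomal oxidation genes, 5 fell and 1 rose under stress against scrMo (21.7% and 4.35%), and 7 rose and none fell in log phase (30.4% higher). Of 19 other genes of mitochondrial oxidation and the carnitine shuttle, 3 fell and 3 rose under stress (15.8% each way). Of 5 other 17-beta hydroxysteroid dehydrogenases, the family of Hsd17b4 by its steroid activity, 1 rose and none fell. Ehhadh, which catalyses the same steps as Hsd17b4 with the other stereochemistry and was named after its values were seen, had group means of only 4.76 to 8.19 normalized counts.

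Under stress without morpholino, the largest DE changes in these further lists were those of Ppargc1a (1.89 ± 0.06), a coactivator of mitochondrial genes, Angptl4 (-1.54 ± 0.09), a target of PPAR, Idh1 (-1.15 ± 0.10), the NADP-dependent isocitrate dehydrogenase of cytosol and peroxisome, Abcd2 (-0.91 ± 0.06), a peroxisomal transporter, and Cpt1c (-0.79 ± 0.06), the brain-type carnitine palmitoyltransferase. Ppargc1a went from 79.8 to 100.8 counts in log phase to 876 to 959 under stress, while most oxidation genes fell in the same libraries. Idh1 read 444.8 to 493.5 in stressed NT cultures, 712.6 to 753.7 with DkkMo and 990.4 to 1053 with scrMo, an order that Phyh and Cpt2 also showed. Of the 12 measured PPAR regulators and targets, 8 rose and 1 fell under stress with NT (66.7% and 8.33%, against 31.5% and 34.1% of all genes).

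**Figure D4:**
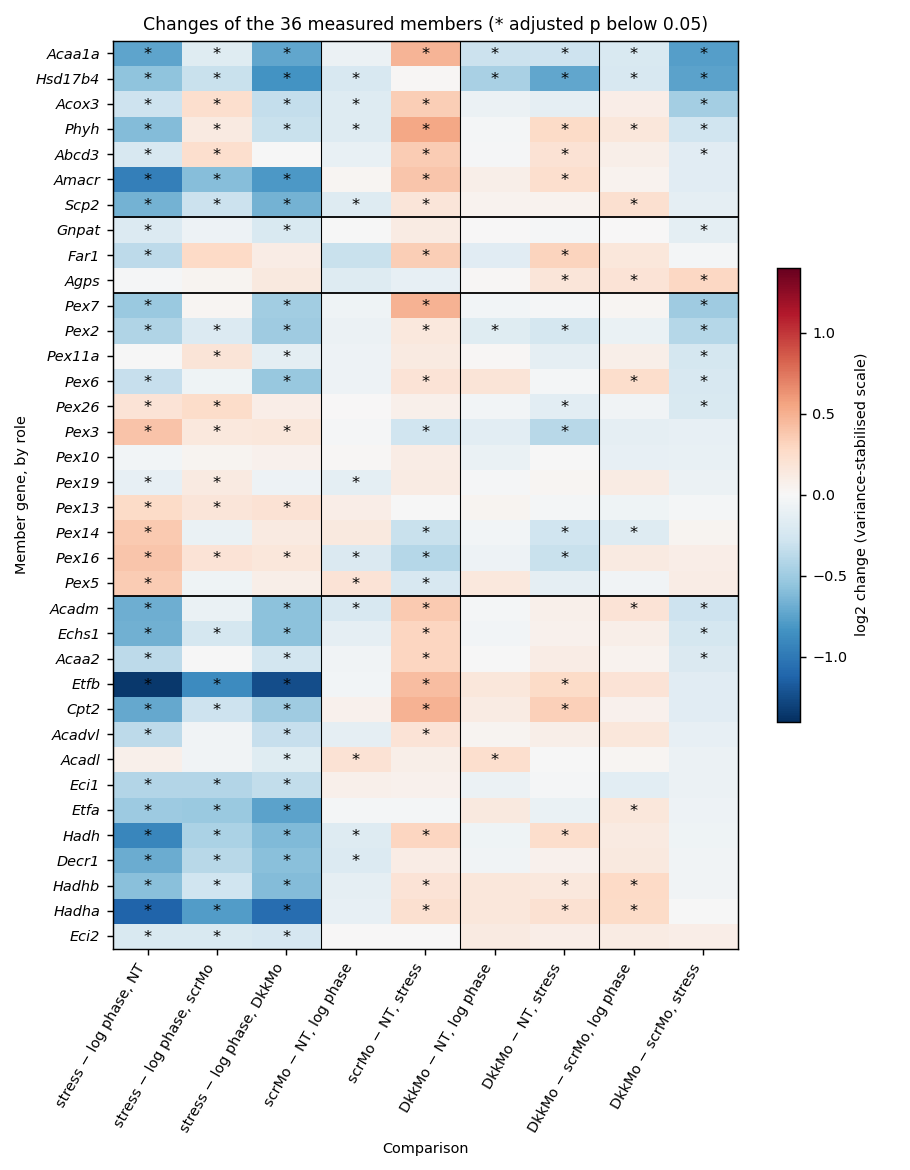
Log2 change (colour scale) of the 36 measured members (vertical axis, by role from peroxisomal oxidation at the top to mitochondrial oxidation at the bottom) in the 9 comparisons of culture groups (horizontal axis), with an asterisk where the adjusted p was below 0.05. Hsd17b4 and Acaa1a are blue in all 4 columns with DkkMo against a control, and most oxidation genes are blue in the stress minus log phase columns for NT and DkkMo.

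In the tumours 24 of the 37 members were listed. Depth ran from 85.3 to 106 M reads with DRB and from 28.3 to 41.05 M with the combination. Hsd17b4 read 1806, 2.47, 0 and 2309 normalized counts in NT tumours, 0, 6.86, 27.2 and 0 with DkkMo, 15695, 214, 1046 and 545 with DRB, and 202, 71.5, 0.786 and 0 with the combination. NT and DkkMo tumours overlapped, and every combination tumour lay below every DRB tumour. The share of all genes without overlap between tumour groups is not reported here. The study names Hsd17b4 as differentially expressed in both of these comparisons and as downregulated with DkkMo, so its direction was known beforehand. In the fit used here it passed in neither. The change was -2.18 ± 1.22 for DkkMo against NT (limma adjusted p = 0.453, exact permutation p = 0.343, two-sided, n = 4 each) and -3.36 ± 1.22 for the combination against DRB (limma adjusted p = 0.0904, with the exact permutation test at the smallest p that 4 against 4 allows). No member passed with DkkMo against NT, where 0% of 12595 genes passed by limma and by limma voom on the recovered reads. At an unadjusted p below 0.05 there were 3 of 24 members and 1554 genes.

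With the combination against DRB, 1 member fell, against 6.92% of all genes, and none rose, against 0.429%. It was Etfa, at -3.85 ± 1.10 (adjusted p = 0.0399), with 12108, 430.3, 1344 and 497 counts in DRB tumours and 22.6, 10.1, 36.1 and 0 with the combination. It did not pass under median-centring, quantile normalization, log2(normalized count + 1) or limma voom. The median change of all genes was -0.71 there and 0.33 with median-centring (of all genes that passed, 36.7% higher in place of 5.83%). With DRB replicate 4 left out 3 members passed, and with any combination tumour or DRB replicate 1 or 3 left out none did. Ttn, the 1 of 8 skeletal muscle markers that was listed, read 1202 to 2219 with DRB and 139 to 515.5 with the combination. Summed counts of listed leukocyte markers were also lower, at 12060 to 196100 with DRB and 4251 to 6825 with the combination. So were those of endothelial (13610 to 91330, and 5222 to 10480) and osteoblast markers (113300 to 1630000, and 20680 to 105500). Chondrocyte and adipocyte sums overlapped. The part of tissue content or of depth in these values was not tested. In tissue, fewer cells of a type and less RNA per cell cannot be told apart.

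Some members share exon sequence with neighbours, and strand was not stated for the counting. Exons of Dvl2 on the other strand cover 42.9% of the merged exons of Acadvl, those of Gm17029 cover 28.3% of Pex14 and those of Myd88 6.57% of Acaa1a. Gm45233 on the same strand covers 53% of Etfb. Reads of these pairs may be split or lost, and the values of these 4 members are uncertain to that extent.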

How the data were processed

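RNA from 18 MOSJ-Dkk1 cultures and 16 fixed tumours was sequenced. Per the labels and methods, the authors aligned reads to GRCm38 with HISAT2 2.1.0 and SAMtools 1.9, counted them per gene with featureCounts (Subread 2.0.0, Ensembl annotation), and deposited log2 values from the variance-stabilising transformation of DESeq2, for cultures and tumours separately. Strandedness and the filter on genes are not given in the sources used here. The transformation was inverted to normalized counts and reads, of which at least 97.0% per tumour library and 100% per culture library came out whole within 0.05 of a read. Sequencing depth was 25.9 to 44.8 M reads in cultures and 26.9 to 125 M in tumours.

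The deposited log2 values were tested with limma 3.58.1 (R 4.3.3, empirical Bayes with trend, 1 mean per group, all cultures or all tumours in a single model), with Benjamini-Hochberg adjustment over 16562 genes in cultures and 12595 in tumours. Genes with reads in at least 3 culture or 4 tumour libraries were tested, and 14 culture rows that spanned more than 6 log2 units within a group were set aside. Python 3.11.15, NumPy 2.4.6, pandas 2.3.3, SciPy 1.17.1 and Matplotlib 3.10.9 served for the rest, and exact permutation tests were two-sided. The procedure was tested on simulated data with known changes.

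Members and further gene lists were chosen with earlier results of these data known. Given library by library are Hsd17b4 and, of the members that were DE without overlap in any of 9 two-group comparisons of cultures, the 15 largest changes (13 qualified). Of the further lists, genes are named where DE with DkkMo against scrMo or among the 5 largest DE changes with stress in NT cultures. Members named beyond these were chosen after their values were seen. The comparisons of DkkMo or scrMo with NT between conditions were added after the data were seen. Alternatives were libraries centred on the median gene, quantile normalization, log2(normalized count + 1), limma voom on recovered reads, array weights, the compared groups only, no trend, no filter, only genes above the median gene, a replicate block and each library left out.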

Additional observations from a re-analysis of the deposited data

Results flagged for a closer look

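The change with DkkMo against scrMo differed between stress and log phase by the interaction test (limma, adjusted p below 0.05) for 18 members, all lower under stress. Among peroxisomal oxidation genes the differences on the log2 scale were -0.566 for Acox3, -0.556 for Acaa1a, -0.527 for Hsd17b4, -0.434 for Phyh, -0.351 for Scp2 and -0.239 for Abcd3. Among peroxins they were -0.521 for Pex7, -0.47 for Pex6, -0.321 for Pex11a, -0.302 for Pex2 and -0.199 for Pex19. Among mitochondrial genes they were -0.481 for Acadm, -0.326 for Echs1, -0.326 for Hadhb, -0.276 for Hadha, -0.27 for Acadvl, -0.252 for Acaa2 and -0.226 for Etfa. The scrMo libraries enter all of these, and scrMo was itself higher than NT under stress for 14 of the 18, while Hsd17b4, Pex11a, Pex19 and Etfa did not pass there.

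The change with scrMo against NT also differed between conditions, in a comparison chosen after the data were seen. It was higher under stress by 0.727 for Phyh, 0.585 for Acadm, 0.566 for Acaa1a, 0.476 for Hadh, 0.466 for Etfb, 0.428 for Cpt2, 0.423 for Echs1, 0.364 for Amacr, 0.357 for Scp2, 0.332 for Hadha, 0.31 for Hadhb, 0.303 for Decr1 and 0.25 for Hsd17b4. The change with DkkMo against NT was higher under stress by 0.299 for Hadh and 0.293 for Phyh, and lower at -0.277 for Hsd17b4 and -0.23 for Etfa. The value of Hsd17b4 was lost with quantile normalization in the latter (adjusted p = 0.0831) and with median-centring in the former (adjusted p = 0.0855).

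In the tumours 1 library stood apart from the other 3 of its group for 6 of 96 combinations of member and group, where chance gives about 1 in 20. The gap to the nearest library over the range of the group was 0.914 for Pex3, 0.871 for Pex13, 0.854 for Pex14 and 0.935 for Acadl in NT tumours, 0.884 for Pex13 with DRB and 0.892 for Eci2 with the combination, above Dixon's 95% critical value for 4 samples. Pex3 read 4436 normalized counts in the high NT tumour and 15.4 or fewer in the others, and Acadl read 20703 and 21.4 or fewer.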

How the results depend on the processing

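The falls of Hsd17b4 with DkkMo kept their direction in every alternative. Against scrMo in log phase its value did not pass with only the compared groups in the model (-0.227, adjusted p = 0.122), and 1 member then passed in that comparison in place of 11. With a change over 1.5-fold required on the compressed variance-stabilised scale, no member remained in DkkMo against scrMo in log phase, its difference between conditions, DkkMo against NT in log phase or scrMo against NT (counts of 0), 2 remained in DkkMo against scrMo under stress, 1 in DkkMo against NT under stress, and 12, 3 and 9 in stress against log phase with NT, scrMo and DkkMo. On log2(normalized count + 1), 5 exceeded 1.5-fold in scrMo against NT under stress. Counts for scrMo against NT in log phase (11) were 4 with only the compared groups, 7 with quantile normalization and 20 with array weights. Leaving out each library gave 4 to 14 members for DkkMo against scrMo in log phase, 11 to 14 for DkkMo against NT under stress, 5 to 10 for scrMo against NT in log phase and 0 to 3 for the combination against DRB in tumours. The last (1) was 4 with only the compared groups or array weights, and 0 with median-centring, quantile normalization, log2(normalized count + 1) or voom. The causes were not tested. For libraries left out, compared groups only, array weights and the replicate block, the share of all genes that passed is not reported, here or above. Whether those changes in count were particular to the members was not tested. With the replicate number as a block, 5 members passed in DkkMo against scrMo in log phase and 4 in scrMo against NT there, and Hsd17b4 was at -0.227 (adjusted p = 0.0335) in log phase, -0.754 under stress and -0.527 for the difference. Whether the numbers pair the libraries is not settled. In log phase same-numbered DkkMo and scrMo libraries had correlations of deviations of 0.624, -0.0487 and 0.57, and the crossed pairs of replicates 1 and 3 had -0.682 and -0.613. Under stress the same-numbered values were -0.0586, -0.0255 and 0.00516. Not every library correlated best with its own number. The block could not be fitted for NT under stress, where 2 titles share a number, or for tumours. No change of Hsd17b4 or of the other members given library by library turned sign while past the threshold, but values near 0 crossed it with single libraries left out, as did Acadm in DkkMo against NT in log phase (-0.133 to 0.0542), and no filter, no trend and only genes above the median gene left all 14 counts within 1.5 times. The spread between tumours, with rank correlations of 0.249 to 0.855 within groups, limits what they can show.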
